A study of Mus musculus with 12 samples.

Results

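The genes that copy DNA in S phase were examined in mouse granulosa cells around an ovulatory stimulus. A list of 48 genes was taken by name, and 47 of them had a probe set assigned to 1 gene symbol among the 18194 genes tested. Chaf1a had none and is only named. Each gene was read from its brightest probe set, averaged over the 12 arrays. A choice was needed for the 38 members with several probe sets, and 9 members had 1. The cells came from wild-type (WT) littermates or from mice with exon 6 of Snf2l deleted (Ex6DEL). Snf2l, listed under the symbol Smarca1, encodes a nucleosome-sliding ATPase of the ISWI family. All females were primed at 24 to 26 days of age with pregnant mare serum gonadotropin (PMSG, 5 IU), a hormone preparation that drives follicle growth. The 0 h groups were collected 48 h after PMSG without a further hormone. The 4 h groups were given human chorionic gonadotropin (hCG, 5 IU) at 48 h after PMSG and were collected 4 h later. This hormone binds the receptor of luteinizing hormone (LH) and starts ovulation. There were 4 groups of 3 arrays, and each array held RNA of granulosa cells pooled from 5 mice. The deletion came from a cross of Gata-1 Cre mice, described as expressing Cre in all tissues, on a CD-1 background with mice whose exon 6 was flanked by loxP sites. The allele was carried in the germline and kept on a 129SV background without Cre, so the granulosa cells were not its only site. The treatment notes speak of 5 mice per group, and nothing says whether the 3 arrays of a group are separate pools, so p-values measure only the spread between arrays, which may be technical. In RNA from pooled cells, fewer cells in S phase and less RNA per cell cannot be told apart.

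DNA replication begins in G1, when the origin recognition complex (ORC) with CDC6 and CDT1 loads the ring-shaped MCM helicase onto origins. At the start of S phase the kinase CDC7 with its activator DBF4, together with CDC45, the GINS complex and MCM10, turns the loaded helicase into a moving fork. DNA polymerase alpha with primase starts each strand, polymerases delta and epsilon extend it on the sliding clamp PCNA, the RFC complex loads that clamp, and RPA coats the exposed single strand. FEN1 and DNA ligase I join the lagging strand, while ribonucleotide reductase and thymidine kinase supply nucleotides and CAF-1 and UHRF1 handle the new chromatin. Many of these genes are turned on together at the G1/S border by E2F factors once cyclin E and its kinase act on the retinoblastoma protein. Granulosa cells of growing follicles divide rapidly under follicle-stimulating hormone and leave the cell cycle after the LH surge as they turn into luteal cells.

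What the members share in sequence was read from a RefSeq table of promoters (build GRCm38.p6), which held 48 promoters for 40 of the 48 listed genes, each reaching from 250 bases before the start of transcription to 50 after it. The letters of an E2F site were searched on both strands as TTTCCCGC, TTTCGCGC, TTTGCCGC or TTTGGCGC, and those of a CCAAT box as CCAAT. E2F letters stood in 15 of the 48 member promoters (31.25%), in 3.21% of the 18110 promoters of genes tested here and in 2.26% of all 32851 promoters of that length in the table. CCAAT stood in 27 of the 48 (56.25%), in 37.4% of the promoters of genes tested and in 37.4% of all promoters. The 120 bases just before the start are given here for 7 members, written along the gene's own strand, with every whole E2F or CCAAT match inside the window in capitals. Mcm6, Gins3 and Orc1 are shown because they hold E2F letters there, Rpa1 because it was the member that passed the test after hCG, and Rrm1, Pcna and Tk1 for their values after hCG.
Mcm6 (chr1:128359706-128359825, minus strand): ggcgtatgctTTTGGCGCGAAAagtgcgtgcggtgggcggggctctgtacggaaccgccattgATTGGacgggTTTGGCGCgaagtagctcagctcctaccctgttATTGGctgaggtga
Gins3 (chr8:95633439-95633558, plus strand): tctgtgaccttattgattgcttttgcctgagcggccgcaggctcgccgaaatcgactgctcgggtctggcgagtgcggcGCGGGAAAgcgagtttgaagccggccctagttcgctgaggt
Orc1 (chr4:108579334-108579453, plus strand): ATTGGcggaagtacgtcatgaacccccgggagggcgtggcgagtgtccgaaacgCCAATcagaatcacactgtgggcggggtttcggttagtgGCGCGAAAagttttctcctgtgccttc
Rpa1 (chr11:75348384-75348503, minus strand): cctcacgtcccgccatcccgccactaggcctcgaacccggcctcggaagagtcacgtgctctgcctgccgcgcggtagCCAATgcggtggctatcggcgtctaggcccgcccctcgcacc
Rrm1 (chr7:102441575-102441694, plus strand): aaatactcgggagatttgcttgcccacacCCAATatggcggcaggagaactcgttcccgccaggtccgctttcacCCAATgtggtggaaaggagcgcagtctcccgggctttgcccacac
Pcna (chr2:132253181-132253300, minus strand): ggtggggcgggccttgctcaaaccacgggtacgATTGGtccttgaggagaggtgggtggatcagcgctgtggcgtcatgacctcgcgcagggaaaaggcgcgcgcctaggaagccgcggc
Tk1 (chr11:117826015-117826134, minus strand): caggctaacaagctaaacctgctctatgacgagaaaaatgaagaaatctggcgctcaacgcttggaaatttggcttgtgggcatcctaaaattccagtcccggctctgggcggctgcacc

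In Mcm6 the E2F matches begin 110, 106 and 47 bases before the start, and the match at 110 overlaps the one at 106 on the other strand. Gins3 has 1 match at 41 bases and Orc1 1 at 27 bases before the start, and in Orc1 CCAAT matches lie on both strands at 120 and 66 bases. Rpa1, Rrm1 and Pcna hold CCAAT letters without an E2F match in the whole 300-base promoter, and Tk1 holds neither motif in the window. A match is a string of letters, and no binding was measured.

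The values are log2 intensities, and a log2 change of -1 is a level 2-fold lower. A common model was fitted with limma to all 18194 genes, Benjamini-Hochberg adjustment ran over all of them, and "called" means an adjusted p below 0.05. Errors of changes are standard errors (SE) of that model, errors of means are SDs over 3 arrays, and intervals are at 95%. The scale has a floor of 2.21, the array medians lay between 2.75 and 2.91, and 40 of the 47 members lay above the median gene level of 4.74. Tyms, thymidylate synthase, and Orc1 had means of 2.36 and 2.8, under the highest array median, so their values carry little signal. Because probe sets differ in brightness, levels are compared between groups of 1 gene and never between genes. Smarca1 lay between 10.31 and 12.32 and differed by 0.04 at 0 h and -0.04 at 4 h between genotypes (limma adjusted p = 1 at each time). The position of its probe set on the gene was not looked up, so this does not check the deletion. Of 9 granulosa markers measured, 8 lay above the median gene level, while Amh lay under the highest array median. Markers of other cells were present as well, with 9 of 9 theca and stroma markers and 8 of 10 oocyte markers above the median gene level.

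Before hCG the arrays of a group differed widely in the mean of the replication genes, and after hCG they lay close (figure of list means by array). Averaged over the 47 members, the WT arrays of 0 h stood at 7.11, 7.78 and 8.18 for replicates 1, 2 and 3, and the Ex6DEL arrays of 0 h at 8.05, 7.83 and 7.54. After 4 h the WT arrays stood at 7.09, 7.12 and 7.16 and the Ex6DEL arrays at 7.15, 6.98 and 7.05. All arrays of 0 h except WT replicate 1 thus lay above every array of 4 h, and WT replicate 1 at 0 h lay within the range of the 4 h arrays. The median SD of a member over 3 arrays was 0.56 in WT and 0.62 in Ex6DEL at 0 h, against 0.26 and 0.27 at 4 h. Single members still varied, with an SD above 0.50 in 11 members in WT and 3 in Ex6DEL at 4 h, against 30 and 29 at 0 h. Over the genes above the median level it was 0.39 and 0.50 at 0 h and 0.39 in each genotype at 4 h. WT replicate 1 was the lowest of its group at 0 h in 39 of 47 members and WT replicate 3 the highest in 38. Among the Ex6DEL arrays of 0 h, replicate 1 was the highest in 30 members and replicate 3 the lowest in 24.

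**Figure D1:**
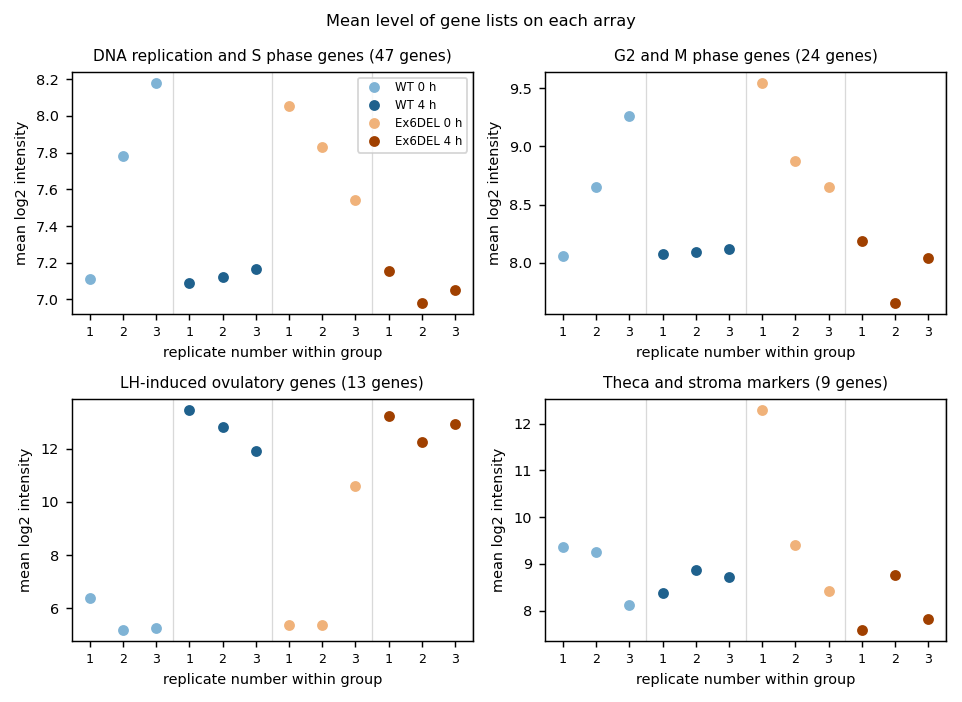
Mean log2 intensity (vertical axis) of 4 gene lists on each of the 12 arrays (horizontal axis: replicate number within WT 0 h, WT 4 h, Ex6DEL 0 h and Ex6DEL 4 h, from left to right); each point is 1 array. The replication genes spread from 7.11 to 8.18 at 0 h in WT and from 7.09 to 7.16 at 4 h, Ex6DEL 0 h replicate 3 stands at 10.6 for LH-induced genes, and Ex6DEL 0 h replicate 1 stands at 12.3 for theca and stroma markers.

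The same 0 h arrays stood apart in other lists. The mean of 13 LH-induced ovulatory genes was 6.39 on WT replicate 1 at 0 h against 5.20 and 5.26 on the other WT arrays, and 10.6 on Ex6DEL replicate 3 at 0 h against 5.37 and 5.36. It lay between 11.9 and 13.5 on the arrays of 4 h. The mean of 9 theca and stroma markers was 12.3 on Ex6DEL replicate 1 at 0 h and between 7.59 and 9.41 on all other arrays. No array carried both marks, and the part of either list in the replication values was not tested. Results are therefore given with and without WT replicate 1 and Ex6DEL replicate 3 of 0 h where it matters.

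**Figure D2:**
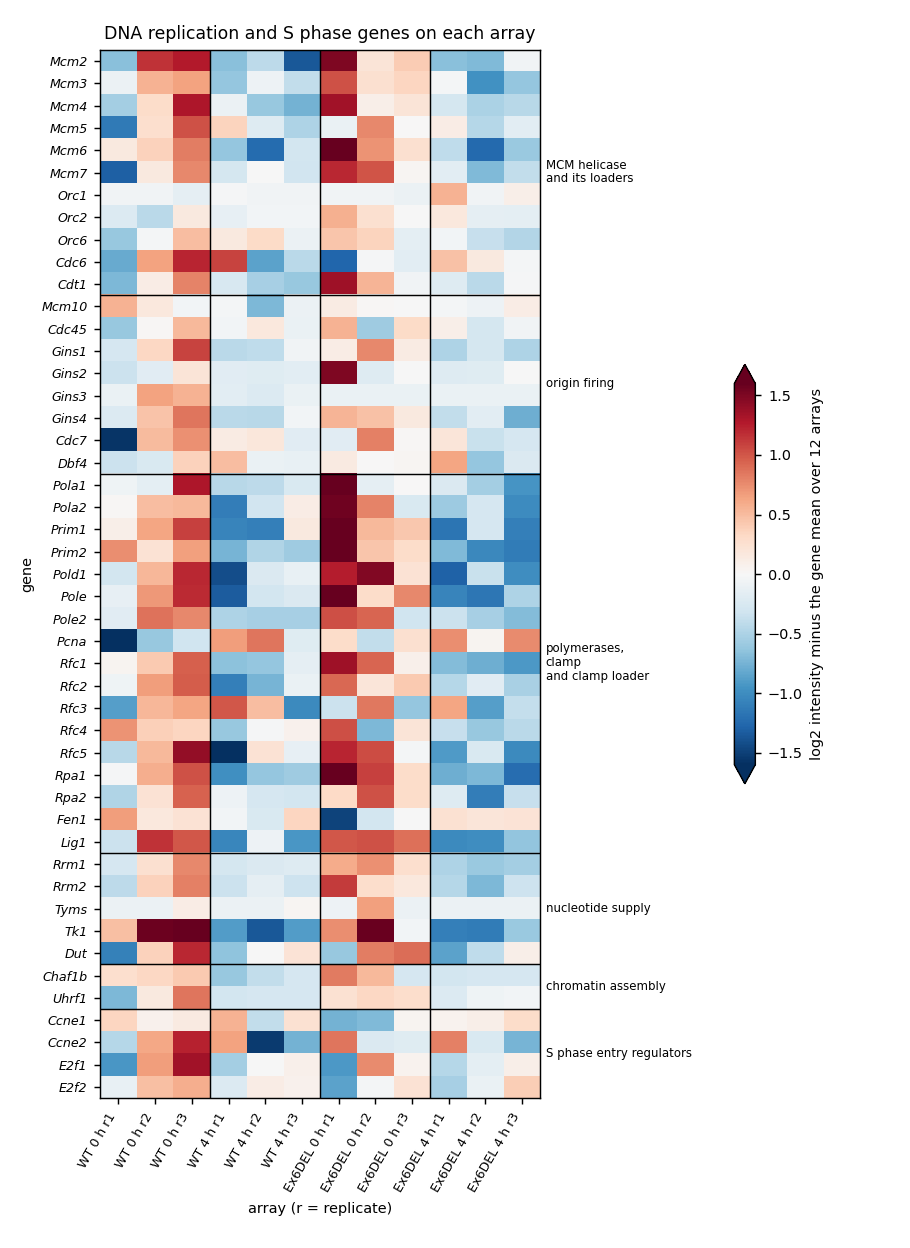
Log2 intensity of each of the 47 members (rows, in blocks by role) on each of the 12 arrays (columns, r = replicate), shown as the difference from the gene's own mean over the 12 arrays; red is above and blue below it, and differences beyond the ends of the scale take the end colours. Red fills most rows of WT 0 h replicates 2 and 3 and of Ex6DEL 0 h, while Pcna is blue in the WT arrays of 0 h, and Cdc6 and Fen1 are blue in Ex6DEL 0 h replicate 1.

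The first comparison asked how the genes responded to hCG in normal cells. In WT 39 of the 47 members had a negative log2 change from 0 h to 4 h and 8 a positive one, with a median of -0.53. The median was 0.00 over all genes tested and -0.07 over genes above the median level. limma called 0 members, against 0.929% of all genes called in this contrast. At an unadjusted p under 0.05 there were 16 members lower and 1 higher, 36.2% in all, against 14.4% of all genes and 23.5% of genes above the median level. No overlap between the 0 h and 4 h arrays was found for 11 members that were lower at 4 h (23.4% of members, against 11.4% of all genes and 18.1% of genes above the median level) and in 1 that was higher (against 7.52% of all genes). Without WT replicate 1 of 0 h, the lowest array of its group, 42 members had a negative change and the median was -0.92. In that fit 3 members (Gins3, Lig1 and Tk1) were called, 6.38% against 1.09% of all genes. Without WT replicate 3 of 0 h, the highest array, the median was -0.32. That fit called 0 members, against 0.61% of all genes.

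In Ex6DEL cells 40 members had a negative log2 change after hCG, 6 a positive one and Gins3 had none, with a median of -0.76. Over all genes the median was -0.01 and over genes above the median level it was -0.34. The arrays did not overlap in 25 members that were lower at 4 h (53.2%, against 14.5% of all genes and 26.1% of genes above the median level) and in 2 that were higher (against 5.13% of all genes). limma called 1 member, Rpa1, lower, which is 2.13% of the members against 2.17% of all genes called, a share near the background. There were 21 members lower and 2 higher at an unadjusted p under 0.05, 48.9% in all, against 18.9% of all genes and 32.7% of genes above the median level. Without Ex6DEL replicate 3 of 0 h the count called was 10, all lower, or 21.3% against 6.9% of all genes in that fit. The median was -0.94 and 40 members again had a negative change. Without Ex6DEL replicate 1 of 0 h, the array with high theca and stroma markers, the median was -0.56 and 39 members had a negative change. In that fit 1 member (Prim2) was called, 2.13% against 0.291% of all genes, and Rpa1 was not (limma adjusted p = 0.103). Without both WT replicate 1 and Ex6DEL replicate 3 of 0 h 11 members were called in Ex6DEL (23.4%, against 7.11% of all genes in that fit) and 5 in WT (10.6%, against 1.76%). With the replicate number as a block, 0 members and 92 genes in all (0.506%) were called in Ex6DEL.

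Cell type markers were read in the same contrast. Of 9 granulosa markers in Ex6DEL, 8 had a negative change after hCG, with a median of -1.02 and 2 called lower by limma. All 9 theca and stroma markers were at least 2-fold lower in mean at 4 h, with a median of -2.10 and 0 called (3 at an unadjusted p under 0.05). Only 2 of them were lower without overlap. The mean of this list at 0 h was 12.3 on replicate 1, 9.41 on replicate 2 and 8.42 on replicate 3, and it lay between 7.59 and 8.75 at 4 h. Of all genes 2.17% were called in this contrast and 18.9% had an unadjusted p under 0.05. Of 10 oocyte markers 7 had a negative change, with a median of -0.31 and 0 called (1 at an unadjusted p under 0.05). In WT the medians of these lists were 0.00, 0.00 and 0.23, with 0 called (2, 0 and 0 at an unadjusted p under 0.05). Other lists did not fall alike in Ex6DEL. A positive change was found in 6 of 7 ovarian surface epithelium markers (median 0.25), 4 of 7 endothelium markers and 3 of 8 leukocyte markers, with 0 called. Their part in the replication values was not tested.

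Across the genotypes 34 members had a negative change in each, 2 (Pcna and Orc1) a positive change in each and 10 opposite signs. The genotypes have separate arrays, but some same-numbered arrays deviated together, up to a correlation of 0.73 for replicate 1 at 4 h. They are therefore not taken as independent repeats. The 10 members lower without overlap in both genotypes were 90.9% of the 11 in WT and 40% of the 25 in Ex6DEL. Of all genes 11.4% were lower without overlap in WT and 14.5% in Ex6DEL. The share of all genes in both was not counted, so this overlap is a description only. The intervals of the individual members were wide (figure of changes by member).

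**Figure D3:**
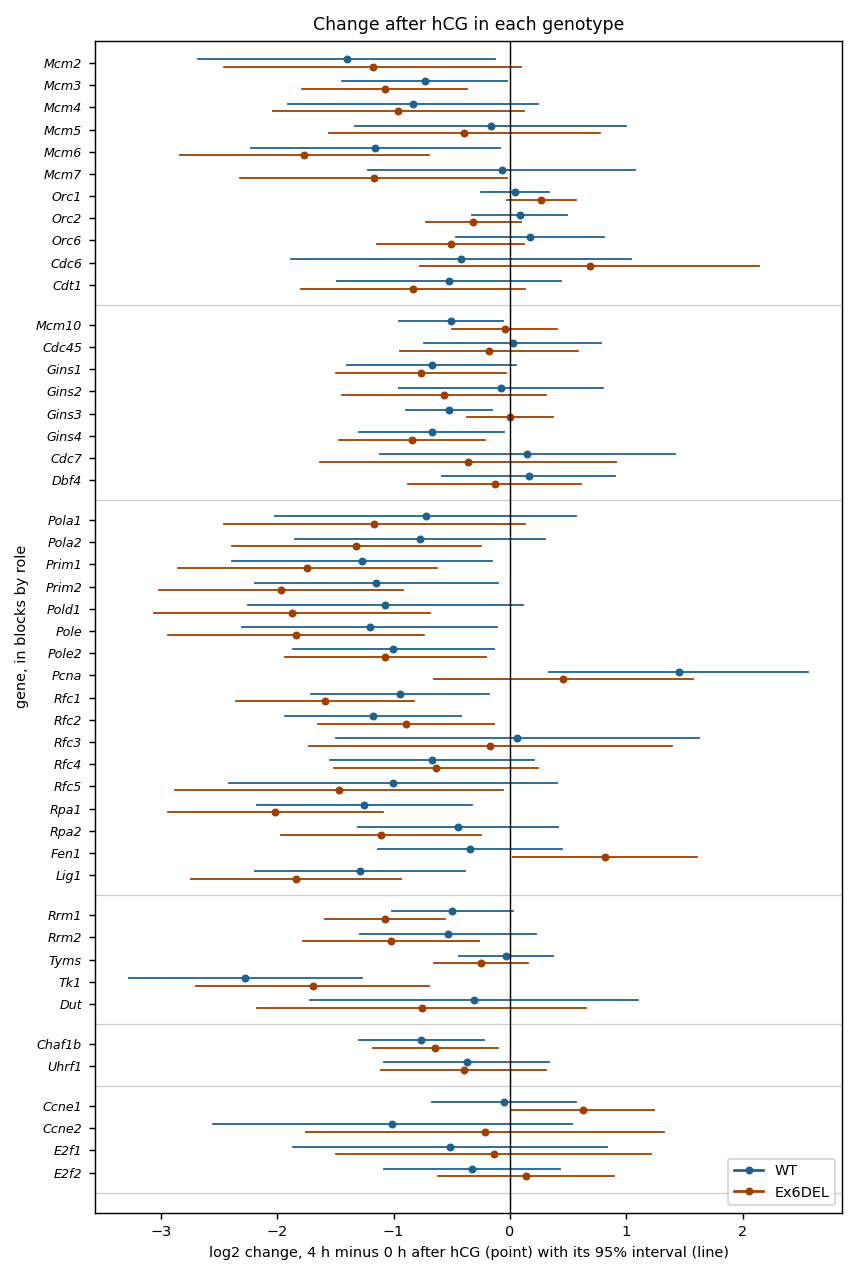
Log2 change from 0 h to 4 h after hCG (horizontal axis) of each of the 47 members (vertical axis, in blocks by role) in WT (blue) and Ex6DEL (brown); points are the fitted changes and lines their 95% intervals from limma. Most points lie left of 0 in each genotype, from -2.28 for Tk1 in WT to 1.45 for Pcna in WT, and the intervals of the genotypes overlap.

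The MCM helicase and the proteins that load it made up 11 members, with a median change of -0.42 in WT and -0.84 in Ex6DEL and 0 called. Mcm6, a helicase subunit, had 8.82, 9.03 and 9.48 on the WT arrays of 0 h and 8.04, 7.44 and 8.37 on those of 4 h. In Ex6DEL Mcm6 had 10.74, 9.38 and 8.92 at 0 h and 8.25, 7.42 and 8.07 at 4 h. Every array of 4 h lay below every array of 0 h, and the Ex6DEL spread at 0 h was set by replicate 1, the array rich in theca and stroma markers. The log2 change of Mcm6 was -1.16 in WT (SE 0.47, limma adjusted p = 0.308) against -1.77 in Ex6DEL (SE 0.47, adjusted p = 0.0904).

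Mcm7, another helicase subunit, did not separate in WT. It had 10.50, 11.97 and 12.58 at 0 h and 11.53, 11.81 and 11.50 at 4 h in WT, so the 0 h arrays spanned those of 4 h. In Ex6DEL Mcm7 had 13.02, 12.81 and 11.83 at 0 h and 11.64, 11.10 and 11.41 at 4 h, with no overlap. Its log2 change was -0.07 in WT (adjusted p = 1 by limma) and -1.17 in Ex6DEL (adjusted p = 0.256), and the WT change was -0.66 without WT replicate 1 of 0 h. The subunits Mcm2, Mcm3, Mcm4 and Mcm5 had changes of -1.40, -0.73, -0.83 and -0.17 in WT and -1.18, -1.07, -0.96 and -0.39 in Ex6DEL, none called. On the chosen probe sets all 6 subunits were thus negative in each genotype. In Ex6DEL 5 of the 6 were lower without overlap (against 14.5% of all genes), Mcm5 being the exception. Another Mcm5 set, at a mean of 7.44, had 0.09 in WT and 0.31 in Ex6DEL.

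The loaders did not share that pattern in every case. Cdt1, which brings the helicase to ORC, had changes of -0.53 in WT and -0.84 in Ex6DEL. Cdc6, the ATPase that works with it, had -0.42 and 0.68, with adjusted p of 0.883 and 0.609 by limma. Orc2 had 7.09, 6.88 and 7.47 on the WT arrays of 0 h and 7.18, 7.26 and 7.26 on those of 4 h. In Ex6DEL Orc2 had 7.88, 7.57 and 7.31 at 0 h and 7.48, 7.17 and 7.15 at 4 h. The groups overlapped in each genotype, with changes of 0.09 and -0.31. Another Orc2 set, at a mean of 5.47, had -1.14 in WT and -0.79 in Ex6DEL. A further one, at a mean of 2.78, had 0.33 and -0.10.

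Orc6, a further ORC subunit, had 7.07, 7.64 and 8.17 at 0 h and 7.84, 7.99 and 7.59 at 4 h in WT. In Ex6DEL Orc6 had 8.12, 8.03 and 7.52 at 0 h and 7.64, 7.30 and 7.21 at 4 h, again with overlap. The Orc6 change was 0.17 in WT and -0.51 in Ex6DEL. Orc1, the largest ORC subunit, lay near the floor, between 2.66 and 2.78 on the WT arrays and between 2.70 and 3.36 on those of Ex6DEL, so its changes of 0.04 and 0.27 carry little.

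The 8 origin firing genes had a median change of -0.29 in WT and -0.27 in Ex6DEL and 0 called. Cdc7, the kinase that starts firing, had 7.10, 9.18 and 9.41 at 0 h and 8.80, 8.85 and 8.48 at 4 h in WT. In Ex6DEL Cdc7 had 8.49, 9.47 and 8.69 at 0 h and 8.87, 8.31 and 8.39 at 4 h. WT replicate 1 of 0 h alone lay below all other arrays, and the WT change of 0.15 was -0.58 without it. Dbf4, its activator, had 0.16 in WT and -0.13 in Ex6DEL, and Cdc45, the helicase cofactor, had 0.02 and -0.18.

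Among the GINS subunits, Gins1 and Gins4 were lower at 4 h without overlap in Ex6DEL. Gins1 had changes of -0.67 in WT and -0.76 in Ex6DEL, and Gins4 had -0.67 and -0.84, none called. Gins3 had 3.59, 4.33 and 4.25 at 0 h and 3.53, 3.48 and 3.59 at 4 h in WT, and 3.59 on all 6 Ex6DEL arrays. Only WT replicates 2 and 3 of 0 h stood above that common low value. The Gins3 change in WT was -0.53 (SE 0.16, adjusted p = 0.188 by limma), and without WT replicate 1 of 0 h it was -0.76 with an adjusted p of 1.6e-04. Mcm10 had 7.59, 7.20 and 6.99 at 0 h and 7.0, 6.32 and 6.94 at 4 h in WT. In Ex6DEL Mcm10 had 7.16, 7.05 and 7.02 at 0 h and 7.0, 6.95 and 7.14 at 4 h. The groups overlapped in each genotype, with changes of -0.51 (adjusted p = 0.288) and -0.05 (adjusted p = 1).

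The polymerases, the clamp, its loader and the single-strand binding proteins had the lowest median change of the 6 roles, -1.0 in WT and -1.32 in Ex6DEL over 17 members. Lower without overlap were 8 of the 17 in WT, against 11.4% of all genes and 18.1% of genes above the median level. In Ex6DEL they were 13, against 14.5% and 26.1%. Rpa1, the large subunit of RPA, had 10.59, 11.19 and 11.63 on the WT arrays of 0 h and 9.63, 10.00 and 10.04 on those of 4 h. In Ex6DEL Rpa1 had 12.53, 11.71 and 10.90 at 0 h and 9.83, 9.89 and 9.39 at 4 h. All arrays of 0 h lay above all arrays of 4 h. Rpa1 fell by 2.01 on the log2 scale in Ex6DEL (SE 0.41, interval -2.94 to -1.09, limma adjusted p = 0.0465), a level 4.04-fold lower.

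The Rpa1 call was lost under several alternatives. With the replicate number as a block its adjusted p was 0.0819, with only the Ex6DEL arrays in the fit it was 0.236, and over single arrays left out it ran from 0.0143 to 0.156 with changes of -2.42 to -1.61. In WT the Rpa1 change was -1.25 (SE 0.41, adjusted p = 0.207). The other Rpa1 probe set had -1.12 in WT and -2.30 in Ex6DEL. Rpa2, the middle subunit, had changes of -0.45 and -1.11, and the latter separated without overlap.

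**Figure D4:**
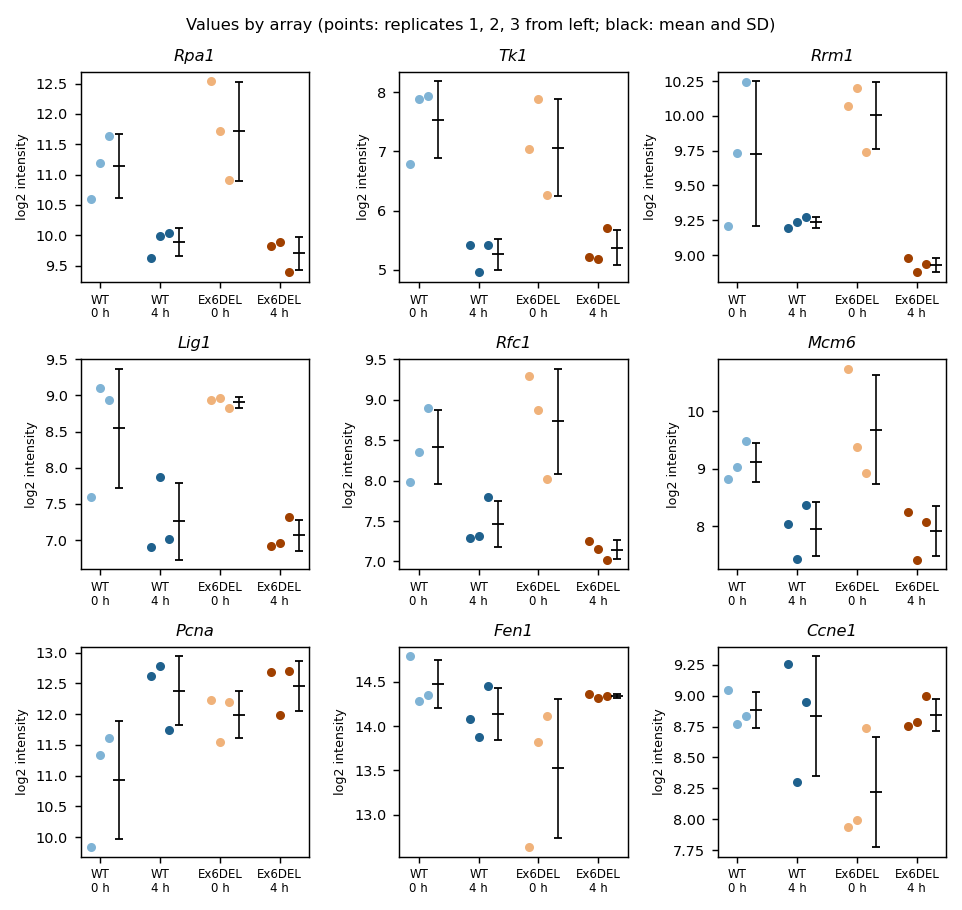
Log2 intensity (vertical axis, on its own scale for each gene) of 9 members on the 3 arrays of each group (horizontal axis); points are arrays in the order of replicates 1, 2 and 3, and black marks with bars are the mean and SD. For Rpa1, Tk1 and Mcm6 every array of 4 h lies below every array of 0 h of its genotype, whereas Pcna lies at 9.84 to 11.62 in WT at 0 h and 11.74 to 12.79 at 4 h.

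The RFC subunits load the clamp. Rfc1 had 7.99, 8.36 and 8.90 at 0 h and 7.29, 7.32 and 7.80 at 4 h in WT. In Ex6DEL Rfc1 had 9.30, 8.88 and 8.02 at 0 h and 7.25, 7.16 and 7.02 at 4 h. No array of 4 h reached the lowest of 0 h in its genotype. The Rfc1 change was -0.95 in WT (SE 0.34, adjusted p = 0.248 by limma) against -1.59 in Ex6DEL (SE 0.34, adjusted p = 0.0511).

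Rfc2 had 8.28, 9.02 and 9.32 at 0 h and 7.25, 7.60 and 8.24 at 4 h in WT. In Ex6DEL Rfc2 had 9.27, 8.54 and 8.76 at 0 h and 7.90, 8.17 and 7.83 at 4 h. The arrays separated in each genotype, by a narrow margin in WT. Its changes were -1.18 in WT (SE 0.33, adjusted p = 0.153) against -0.89 in Ex6DEL (SE 0.33, adjusted p = 0.189). Rfc4 and Rfc5 had -0.67 and -1.0 in WT and -0.64 and -1.47 in Ex6DEL, while Rfc3, at a mean of 3.91, had 0.06 and -0.17. The other Rfc3 set, at a mean of 3.61, had -1.38 in WT and -1.15 in Ex6DEL, so the Rfc3 change is not settled.

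Lig1, DNA ligase I, had 7.59, 9.10 and 8.93 on the WT arrays of 0 h and 6.90, 7.87 and 7.01 on those of 4 h. In Ex6DEL Lig1 had 8.93, 8.96 and 8.82 at 0 h and 6.92, 6.95 and 7.31 at 4 h. The WT groups overlapped through replicate 1 of 0 h, and the Ex6DEL groups lay well apart. Its change was -1.29 in WT (SE 0.40, adjusted p = 0.188 by limma) against -1.84 in Ex6DEL (SE 0.40, adjusted p = 0.0533).

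The polymerase and primase subunits were all negative in each genotype. Prim1 and Prim2, the primase subunits, had changes of -1.27 and -1.15 in WT and -1.74 and -1.97 in Ex6DEL. Pola1 and Pola2 of polymerase alpha had -0.73 and -0.77 in WT and -1.16 and -1.32 in Ex6DEL. Pold1, the catalytic subunit of polymerase delta, had -1.07 and -1.87, and Pole and Pole2 of polymerase epsilon had -1.21 and -1.0 in WT and -1.84 and -1.07 in Ex6DEL. All 7 were lower without overlap in Ex6DEL (against 14.5% of all genes) and 4 of them (Pola1, Prim2, Pole and Pole2) in WT (against 11.4%). None was called, and the smallest adjusted p was that of Prim2 in Ex6DEL, 0.0649 by limma.

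Pcna, the sliding clamp that the polymerases ride on, had a positive change in each genotype. It had 9.84, 11.33 and 11.62 at 0 h and 12.61, 12.79 and 11.74 at 4 h in WT. In Ex6DEL Pcna had 12.23, 11.54 and 12.20 at 0 h and 12.68, 11.98 and 12.69 at 4 h. In WT every array of 4 h lay above all those of 0 h, by a narrow margin (11.74 against 11.62), and the Ex6DEL groups overlapped. The low WT mean at 0 h leaned on replicate 1, at 9.84. The Pcna change was 1.45 in WT (SE 0.49, adjusted p = 0.223 by limma) against 0.46 in Ex6DEL (SE 0.49, adjusted p = 0.670). It was the WT member higher at 4 h without overlap.

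Fen1, the flap endonuclease of the lagging strand, had 14.79, 14.29 and 14.35 at 0 h and 14.08, 13.87 and 14.46 at 4 h in WT. In Ex6DEL Fen1 had 12.63, 13.82 and 14.11 at 0 h and 14.36, 14.32 and 14.33 at 4 h. Ex6DEL arrays of 4 h lay above those of 0 h, and the WT groups overlapped. Its changes were -0.34 in WT (adjusted p = 0.724 by limma) and 0.81 in Ex6DEL (adjusted p = 0.251). This probe set carries the name ending that Affymetrix gives to sets whose probes may match other transcripts. The chosen sets of Ccne1 and of the falling members Mcm4, Mcm5, Pold1 and Rrm2 carry it too, so the same limit holds for them. The other Fen1 probe set, at a mean of 5.15, had 0.30 in WT and -0.22 in Ex6DEL, so the direction for Fen1 is not settled.

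All 5 genes of nucleotide supply had negative changes in each genotype on the chosen probe sets, with medians of -0.49 and -1.02. Tk1, thymidine kinase, had 6.78, 7.88 and 7.94 on the WT arrays of 0 h and 5.41, 4.95 and 5.41 on those of 4 h. In Ex6DEL Tk1 had 7.04, 7.89 and 6.26 at 0 h and 5.21, 5.19 and 5.71 at 4 h. The groups lay apart in each genotype. Its change of -2.28 in WT (SE 0.44, limma adjusted p = 0.0564), a level 4.84-fold lower, was the largest of the members there, and in Ex6DEL it was -1.70 (SE 0.44, adjusted p = 0.0848). With each of the 12 arrays left out in turn, the adjusted p of Tk1 in WT ran from 0.0319 to 0.196.

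Rrm1, the large subunit of ribonucleotide reductase, had 9.21, 9.73 and 10.25 at 0 h and 9.19, 9.24 and 9.27 at 4 h in WT. In Ex6DEL Rrm1 had 10.07, 10.20 and 9.74 at 0 h and 8.98, 8.87 and 8.93 at 4 h. WT replicate 1 of 0 h lay among the WT arrays of 4 h, and the Ex6DEL groups lay apart. The Rrm1 change was -0.49 in WT (SE 0.23, adjusted p = 0.371 by limma) against -1.07 in Ex6DEL (SE 0.23, adjusted p = 0.0511). Rrm2, its partner subunit, had 9.51, 10.28 and 10.73 at 0 h and 9.57, 9.77 and 9.59 at 4 h in WT. In Ex6DEL Rrm2 had 11.04, 10.20 and 10.08 at 0 h and 9.47, 9.20 and 9.59 at 4 h. The same array made the WT groups overlap, and changes were -0.53 and -1.02. Another Rrm1 set, at a mean of 4.86, had -0.02 in WT and -0.09 in Ex6DEL. Further Rrm2 sets, at means of 7.77 and 4.29, had -0.16 and -0.14 in WT and -0.11 and 0.13 in Ex6DEL. The size of the fall in these genes thus varied with the probe set. Dut, which removes dUTP, had -0.31 and -0.76.

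The 2 measured genes of chromatin assembly had negative changes in each genotype on the chosen probe sets. Chaf1b, a subunit of CAF-1, had 4.99, 5.05 and 5.15 at 0 h and 4.11, 4.33 and 4.46 at 4 h in WT. In Ex6DEL Chaf1b had 5.56, 5.24 and 4.46 at 0 h and 4.43, 4.45 and 4.45 at 4 h. The WT groups lay clearly apart, and in Ex6DEL replicate 3 of 0 h almost met the arrays of 4 h. Its changes were -0.76 (SE 0.24, adjusted p = 0.188 by limma) and -0.64 (SE 0.24, adjusted p = 0.184). Without Ex6DEL replicate 3 of 0 h Chaf1b was called lower in each genotype. Its changes were -0.76 in WT (adjusted p = 0.02 by limma) and -0.95 in Ex6DEL (adjusted p = 0.00936). That fit called 4.26% of members and 1.49% of all genes in WT, and 21.3% and 6.9% in Ex6DEL. The WT arrays and the WT change are the same in it, so the WT call adds no evidence from WT arrays. Only the spread shared by the groups and the adjustment differ.

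Uhrf1, which reads hemimethylated DNA behind the fork, had 7.4, 8.27 and 8.97 at 0 h and 7.82, 7.85 and 7.85 at 4 h in WT. In Ex6DEL Uhrf1 had 8.37, 8.45 and 8.39 at 0 h and 7.90, 8.05 and 8.07 at 4 h. In WT the arrays of 0 h lay on both sides of those of 4 h, and the Ex6DEL groups lay apart. Changes were -0.37 and -0.40, with adjusted p of 0.633 and 0.531 by limma. The other Uhrf1 probe set had -0.34 in WT and 0.52 in Ex6DEL, so the direction in Ex6DEL turned with the probe set.

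All 4 regulators of S phase entry had a negative change in WT, with a median of -0.42, and in Ex6DEL 2 were negative and 2 positive, with a median of -0.0013. Ccne1, cyclin E1, had 9.04, 8.77 and 8.84 at 0 h and 9.25, 8.30 and 8.94 at 4 h in WT. In Ex6DEL Ccne1 had 7.94, 7.99 and 8.74 at 0 h and 8.76, 8.79 and 9.0 at 4 h. In Ex6DEL the 4 h arrays lay above those of 0 h by a narrow margin, and in WT they overlapped. Its changes were -0.05 (adjusted p = 1) and 0.62 (SE 0.27, adjusted p = 0.26 by limma). This probe set has the same name ending as that of Fen1, and the other Ccne1 set had 0.28 in WT and 0.33 in Ex6DEL. Ccne2, cyclin E2, had -1.01 and -0.21, E2f1 had -0.51 and -0.14, and E2f2 had -0.32 and 0.14.

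Changes of members with and without E2F letters in their promoters are given side by side, and their difference was not tested. The 15 with the letters had a median of -0.53 in WT and -0.84 in Ex6DEL, and the 24 measured members with a promoter but no such letters had -0.50 and -0.64. In Ex6DEL 11 of the 15 and 21 of the 24 had a negative change. Lower without overlap were 8 and 11, against 14.5% of all genes and 26.1% of genes above the median level. Rpa1 and Tk1, shown above without E2F letters, had some of the lowest changes, and Mcm6 with 3 matches had -1.16 and -1.77.

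The next comparison asked whether the deletion altered replication genes before hCG. At 0 h limma called 0 members between Ex6DEL and WT, against 0.0330% of all genes, and 3 lower and 1 higher had an unadjusted p under 0.05 (8.51%, against 5.36% of all genes). In Ex6DEL 34 members had the higher mean and 13 the lower, with a median difference of 0.19, close to the 0.21 of all genes above the median level. After quantile normalization, which moved the difference of genes above the median level by -0.23, 23 members were higher and 24 lower, with a median of -0.01. Without WT replicate 1 of 0 h the median was -0.07, with 16 higher and 31 lower. The direction of the list at 0 h thus turned with the scaling and with that array. Cell type markers at 0 h had these values. Of 10 oocyte markers 9 were higher in Ex6DEL, with a median of 1.08, 5 without overlap and 6 at an unadjusted p under 0.05. Of 9 granulosa markers 8 were higher, with a median of 0.94, 4 without overlap and 3 at an unadjusted p under 0.05. All 9 theca and stroma markers had the higher mean in Ex6DEL, with a median of 1.02, 0 without overlap and 0 at an unadjusted p under 0.05. All 7 ovarian surface epithelium markers had the lower mean in Ex6DEL, with a median of -0.47, 1 without overlap and 0 at an unadjusted p under 0.05. Of 7 endothelium markers 4 were higher and 3 lower, of 8 leukocyte markers 4 and 4, and of 3 red blood cell markers 1 and 2. Of all genes 3.96% were higher and 2.45% lower without overlap, and 5.36% had an unadjusted p under 0.05. limma called none of these markers, and their part in the replication values was not tested.

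Fen1 and Ccne1 were the 2 members lower in Ex6DEL without overlap at 0 h (against 2.45% of all genes), and 0 were higher (against 3.96%). Fen1 differed by -0.95 (SE 0.35, interval -1.74 to -0.16) and Ccne1 by -0.66 (SE 0.27, interval -1.28 to -0.04), each with an adjusted p of 0.874 by limma. The other probe sets of these genes differed by 0.59 and -0.21. Gins3 differed by -0.47 and Orc2 by 0.43, also with an adjusted p of 0.874. Without WT replicate 1 the Gins3 difference was -0.70 and was called (adjusted p = 3.5e-04), which rests on 2 WT arrays against the common low value of 3.59 in Ex6DEL. Pcna differed by 1.06 (interval -0.05 to 2.17) and Mcm7 by 0.87 (interval -0.28 to 2.02).

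At 4 h the members were close between genotypes. limma called 0 members, against 0% of all genes, and 0 had an unadjusted p under 0.05 (against 1.62% of all genes). The median difference was -0.09, against -0.12 for genes above the median level, and no member differed by more than 0.48. Rrm1 and Rfc1 were lower in Ex6DEL without overlap (against 2.02% of all genes), with differences of -0.31 (interval -0.82 to 0.21) and -0.32 (interval -1.09 to 0.44). Uhrf1 was higher without overlap (against 0.962% of all genes), by 0.17 (interval -0.54 to 0.87). The members with the smallest unadjusted p also included Orc1 with 0.24, Orc6 with -0.42 and Mcm10 with 0.28, each with an adjusted p of 1 by limma.

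Whether the genotypes responded differently to hCG was tested as an interaction. limma called 0 members, against 0.0110% of all genes, and Fen1 (1.16, SE 0.49) and Gins3 (0.53, SE 0.23) had an unadjusted p under 0.05, each with an adjusted p of 0.871. The median interaction was -0.29, close to the -0.32 of genes above the median level, with 14 members positive and 33 negative. After quantile normalization it was 0.00, with 24 positive and 23 negative, and without WT replicate 1 of 0 h it was 0.08. The larger counts in Ex6DEL than in WT are therefore not shown to be a difference in response. For Rpa1 the interaction was -0.76 (interval -2.07 to 0.54), for Rrm1 -0.58 (interval -1.31 to 0.15), for Pcna -0.99 (interval -2.57 to 0.58) and for Ccne1 0.67 (interval -0.20 to 1.55).

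Other genes of the same pathways gave values on the same scale. Of 44 further replication genes, 41 were measured, with 31 negative in WT (median -0.48) and 36 in Ex6DEL (median -0.69). limma called 0 of them in WT and 2 in Ex6DEL (4.88%, against 2.17% of all genes). Rnaseh2b, a subunit of the enzyme that cuts RNA from RNA-DNA hybrids, fell by 1.6 on the log2 scale (SE 0.24, adjusted p = 0.0285), and Rpa3, the small RPA subunit, fell by 1.15 (SE 0.20, adjusted p = 0.0355). Of all 3 RPA subunits, Rpa1 and Rpa3 were thus called in Ex6DEL and Rpa2 was not. Rpa3 had 7.4, 7.61 and 7.63 at 0 h and 6.49, 6.69 and 6.22 at 4 h in WT, and 7.65, 7.08 and 6.88 at 0 h and 6.10, 6.21 and 5.86 at 4 h in Ex6DEL. Its arrays separated in each genotype, with a change of -1.08 in WT (adjusted p = 0.0529 by limma).

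Of 20 genes that control E2F and the kinase CDK2, all were measured and 0 were called in either genotype. At an unadjusted p under 0.05 there were 6 in WT (30%) and 5 in Ex6DEL (25%). The shares were 14.4% and 18.9% of all genes and 23.5% and 32.7% of genes above the median level. Cdkn1a, which encodes the CDK inhibitor p21, had 7.84, 7.17 and 7.24 at 0 h and 11.53, 11.89 and 10.70 at 4 h in WT. In Ex6DEL Cdkn1a had 6.00, 7.65 and 10.00 at 0 h and 10.73, 11.16 and 12.02 at 4 h. The groups lay apart in each genotype, and replicate 3 of Ex6DEL at 0 h was the highest of its group, as it was for the LH-induced genes. The changes were 3.96 (SE 0.88, adjusted p = 0.0775) and 3.42 (SE 0.88, adjusted p = 0.0830) by limma. Ccna2, cyclin A2, had -0.40 and -0.63, E2f6, a repressive E2F, had -0.69 and -0.90, and E2f8, another repressor, had -0.94 and 0.14.

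Of 25 G2 and M phase genes, 24 were measured, with 22 negative in WT (median -0.54) and all 24 in Ex6DEL (median -1.05). None was called by limma, while 5 in WT and 12 in Ex6DEL had an unadjusted p under 0.05. These were 20.8% and 50%, against 14.4% and 18.9% of all genes and 23.5% and 32.7% of genes above the median level. Ccnb2, cyclin B2, had -2.16 in WT and -3.24 in Ex6DEL, Aurkb, a mitotic kinase, had -1.39 and -1.98, Birc5, its partner, had -0.95 and -1.36, and Prc1, of the mitotic spindle, had -0.06 and -1.12. The mean of this list on the WT arrays of 0 h was 8.06, 8.65 and 9.26, in the same order as that of the replication genes. On the Ex6DEL arrays of 0 h it was 9.55, 8.88 and 8.65. After 4 h it lay between 7.66 and 8.19.

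The direction mostly held between probe sets above the median gene level, but it turned with the probe set for some members, among them Fen1 and Uhrf1. The members had 57 further probe sets, of which 24 in 18 members lay above the median gene level. Of these 24, 20 had the same sign of change as the chosen set in WT and 22 in Ex6DEL. The rest of the 57 did not lie above that level and were not counted. The 2 other Rfc1 sets had -0.63 and -0.89 in WT and -1.06 and -0.93 in Ex6DEL. When all probe sets of a gene were averaged, 40 members were negative in WT and 39 in Ex6DEL.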

How the data were processed

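Expression was measured on 12 Affymetrix mouse arrays in 4 groups of 3. The authors deposited log2 values for each probe set, made with GCRMA (version not given), per the submitters' processing notes. GCRMA corrects background, normalizes between arrays and summarises probes, so low genes pile up at the floor and their changes are understated. Of 45101 probe sets, 34958 had 1 gene symbol in the platform annotation. The 932 with several symbols and the 9211 without a listed symbol were left out, among them a Tyms set shared with its pseudogene. The probe set with the highest mean stood for its gene. One model was fitted to 18194 genes with limma 3.58.1 (lmFit then eBayes, 8 residual degrees of freedom, two-sided; R 4.3.3), adjusted by Benjamini-Hochberg over all genes, and called at 0.05. The fit was tested on simulated data. The number of arrays limits the precision.

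The members and lists were chosen with earlier results of these data known. Full values are given for every member called, for the 4 members with the smallest p of each contrast, and for the brightest member and the one with the smallest p after hCG in each role. Of the other lists, members called or up to 4 with the smallest p are named. Pcna, shown in full, the further members given by their changes, and the other probe sets were chosen after their values were seen.

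The replicate numbers in the labels were checked for pairing. Deviations from the group means of same-numbered arrays correlated across genes at 0.14, 0.40 and 0.24 between the times in Ex6DEL, over 0.1 each, so the blocked values stand beside that result. In WT they were 0.09, 0.24 and 0.02, between genotypes 0.18, 0.55 and -0.04 at 0 h and 0.73, 0.37 and -0.02 at 4 h.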

Additional observations from a re-analysis of the deposited data

How the results depend on the processing

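Each result was recomputed with the alternatives named here, with every array left out in turn and, chosen after seeing the data, with both of these 0 h arrays out (WT replicate 1 and Ex6DEL replicate 3). Members called in WT were 2 (quantile normalization), 1 (arrays shifted to a common median) and 1 (fit on genes above the median level). These were 4.26%, 2.13% and 2.5% of the members fitted, against 1.6%, 1.4% and 5.77% of all genes in those fits. Array weights gave 14 (29.8% against 12.6%), and both out gave 5 (10.6% against 1.76%, median -0.92). Single arrays left out gave 0 to 3, with medians of -0.92 to -0.32. In Ex6DEL quantile normalization, the shift and the fit above the median level gave 3, 5 and 10 (6.38%, 10.6% and 25% against 2.67%, 4.33% and 14.7% of all genes in those fits). Probe sets averaged gave 3 (6.38% against 1.86%, median -0.44) and array weights 3 (6.38% against 2.27%). The count was 0 (only the groups compared), 0 (replicate block), 0 (adjusted p below 0.01) and 11 (both out). Single arrays left out gave 0 to 10, 10 being without Ex6DEL replicate 3 of 0 h, with medians of -0.94 to -0.56. Between genotypes at 0 h the count was 1 with both out and 0 to 1 over single arrays left out, with medians of -0.066 to 0.52. For the interaction it was 1 with both out and 0 to 1, with medians of -0.56 to 0.084. The member in these cases was Gins3, always without WT replicate 1 of 0 h. At 4 h the count was 0 throughout, with medians of -0.11 to -0.02 over arrays left out. The remaining alternatives were the most variable probe set and eBayes with trend and robust.

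Signs of small changes turned as follows, and the cause was not tested. With the most variable probe set Fen1 had 0.30 in WT, -0.22 in Ex6DEL, 0.59 between genotypes at 0 h and -0.52 as interaction. In WT Ccne1 had 0.12 (probe sets averaged), 0.030 (both out) and -0.26 to 0.22 over arrays left out. Orc2 had -0.24 (averaged), -1.14 (most variable) and -0.048 to 0.25, and Orc6 had -0.11 (both out) and -0.11 to 0.44. Mcm7 had -0.66 to 0.38, Cdc7 -0.41 (array weights), -0.58 (both out) and -0.58 to 0.57, and Uhrf1 -0.78 to 0.0044. In Ex6DEL Uhrf1 had 0.063 (averaged) and 0.52 (most variable), and Mcm10 0.095 (quantile). The replicate block, given beside the Ex6DEL result, changed no other call among the members. In WT and between genotypes at each time, same-numbered arrays did not all correlate over 0.1. Some did, up to 0.73 for replicate 1 between genotypes at 4 h, and what those arrays share was not tested.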
